A study of Mus musculus with 10 samples.

Results

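Tfam and 9 other nuclear genes encode the proteins that copy, transcribe and package mitochondrial DNA (mtDNA), and their transcripts were followed in hippocampus of mice of the genotype labelled TfamAKO and of wild-type (WT) mice. The genes were chosen by name, though with earlier results of these data known: Tfam, Polrmt, Tfb1m, Tfb2m, Tefm, Polg, Polg2, Twnk, Ssbp1 and Mgme1. Each of the 10 symbols matched 1 row of the deposited table of estimated counts, which holds 20156 rows in all. RNA was sequenced from 5 TfamAKO and 5 WT mice aged 6 months, with 1 library per mouse and a stranded mRNA kit. The labels give no Cre driver, no deleted exon, no strain, no sex and no litter, and the letters AKO are not spelled out in them. The series title places the study in astrocytic mitochondria, and the RNA is that of hippocampus tissue, a bulk sample in which fewer cells of a type and less RNA per cell cannot be told apart.

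Mammalian mtDNA is a small circular genome that is held in protein-coated nucleoids. TFAM, a high-mobility-group protein, coats and bends this DNA and is needed, together with the RNA polymerase POLRMT and the factor TFB2M, to start transcription. The same genome is replicated by the polymerase POLG with its accessory subunit POLG2, behind the helicase Twinkle and on strands held open by the single-strand binding protein SSBP1, and short transcripts made by POLRMT serve as primers. In mice, deletion of Tfam in a cell is known to lower the amount of mtDNA and of its transcripts in that cell.

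In hippocampus, the Tfam transcript fell by 24.2% in TfamAKO mice, and the other 9 factors did not pass the test. Of the 10 genes, 1 was called, against 37.4% of the 16180 genes tested (edgeR quasi-likelihood test, adjusted p threshold 0.05; 20.8% were called higher and 16.6% lower in TfamAKO). Tfam was also the only one of the 10 with an unadjusted p under 0.05 in that test. Its call depended on the processing and on the libraries kept. Of 27 alternative analyses, 19 kept the call, and the log2 fold change ran from -0.57 to -0.28. In the authors' normalized values Tfam did not pass (limma adjusted p = 0.117), and Polrmt did (limma adjusted p = 0.0424). The median log2 fold change (TfamAKO over WT) of the 10 genes was -0.02, the same as the -0.02 of all genes tested, and 6 of the values were negative and 4 positive. The TfamAKO and WT libraries overlapped for every one of the 10 genes, while 23.9% of all tested genes had groups that did not overlap (14.5% higher and 9.43% lower in TfamAKO).

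Total counts ran from 19558377 to 28675367 in TfamAKO libraries and from 16584245 to 26032470 in WT libraries, and the 10 genes received between 32 counts (Polg2) and 2390 counts (Polg) in a library. The labelled tissue was checked by Prox1, a marker of dentate granule cells, at 34.6 to 85.9 CPM in TfamAKO and 59.5 to 92.7 CPM in WT, where CPM is the gene count divided by the TMM-scaled library size, in the usual unit of counts per M. Several libraries stood apart from the rest. WT 3, 4 and 5 carried choroid plexus transcripts, with Ttr at 2511 CPM or more, against 107 CPM or less in TfamAKO and 122 CPM or less in WT 1 and 2. TfamAKO 4 and 5 carried the Y-linked transcript Kdm5d at 22.7 and 22.4 CPM and Xist at 0.141 and 0 CPM, and in the other 8 libraries Kdm5d was at or below 0.699 CPM and Xist at or above 200.6 CPM. Values without these libraries are given beside the results they moved most.

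Tfam was measured at 23.6, 22.7, 19.6, 23.1 and 23.4 CPM in TfamAKO 1 to 5, and at 31.7, 33.0, 20.6, 32.5 and 30.4 CPM in WT 1 to 5. The TfamAKO values lay close together with TfamAKO 3 lowest, and 4 WT values lay above them, whereas WT 3 lay inside the TfamAKO range. The mean level was 22.5 ± 1.63 CPM in TfamAKO and 29.7 ± 5.17 CPM in WT (SD, n = 5 each). The log2 fold change was -0.40 with a standard error (SE) of 0.12 and a 95% interval of -0.66 to -0.14 (edgeR adjusted p = 0.0204). Within a library, and so free of the scaling between libraries, Tfam made up 11.9% ± 0.938 of the counts of the 10 genes in TfamAKO and 14.7% ± 2.54 in WT (SD, n = 5 each). By this share WT 3, at 10.3%, lay below every TfamAKO library (10.8% to 12.8%). The other WT libraries lay at 14.9% to 16.7%.

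The call on Tfam rested on single libraries. It was lost when WT 2 was left out (log2 fold change -0.34, edgeR adjusted p = 0.0580), and likewise for WT 4 (-0.37, adjusted p = 0.0504), for TfamAKO 3 (-0.35, adjusted p = 0.0554) and for TfamAKO 4 and 5 together (-0.43, adjusted p = 0.0524). The direction was kept in each of these fits. Without WT 3 the log2 fold change was -0.51. Without WT 3, 4 and 5 it was -0.50 (edgeR adjusted p = 0.0157), and with the choroid plexus score as a covariate it was -0.52 (edgeR adjusted p = 0.0234).

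Markers of several cell types differed between the genotypes as well. Over all genes tested, 37.4% were called, 20.8% higher and 16.6% lower in TfamAKO. Summed astrocyte markers (10 genes, 4 higher and 3 lower past the threshold) ran from 4581 to 7176 CPM in TfamAKO and from 4293 to 5297 CPM in WT. The sum mixed opposite changes. Gfap, 1 of the 4 higher, averaged 2093 CPM in TfamAKO and 447 CPM in WT. Of the 3 lower, Slc1a2 averaged 1340 and 2122 CPM, and Aldoc 570 and 999 CPM, in the same order. Also higher were Aldh1l1 (log2 fold change 1.29), Aqp4 (0.87) and Slc1a3 (0.55), and also lower was Gjb6 (-0.94). Summed neuron markers (10 genes, 6 lower) ran from 8444 to 10047 CPM in TfamAKO and from 10886 to 11957 CPM in WT, and summed microglia markers (10 genes, 9 higher) ran from 707 to 889 CPM in TfamAKO and from 390.4 to 455 CPM in WT. Endothelial markers (7 genes, 6 higher) summed to between 309.7 and 502 CPM in TfamAKO and to between 202 and 265 CPM in WT. Oligodendrocyte markers (8 genes, 2 higher) summed to between 5877 and 7980 CPM in TfamAKO and to between 5151 and 8969 CPM in WT. Their ranges overlapped, and the 25.0% called in that list was below the share over all genes. Choroid plexus markers (10 genes, 10 lower) summed to between 40.9 and 136 CPM in TfamAKO and to between 46.3 and 5752 CPM in WT. No marker of these lists was at 0 in every library, and the part of cell makeup in the level of Tfam was not tested.

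**Figure D1:**
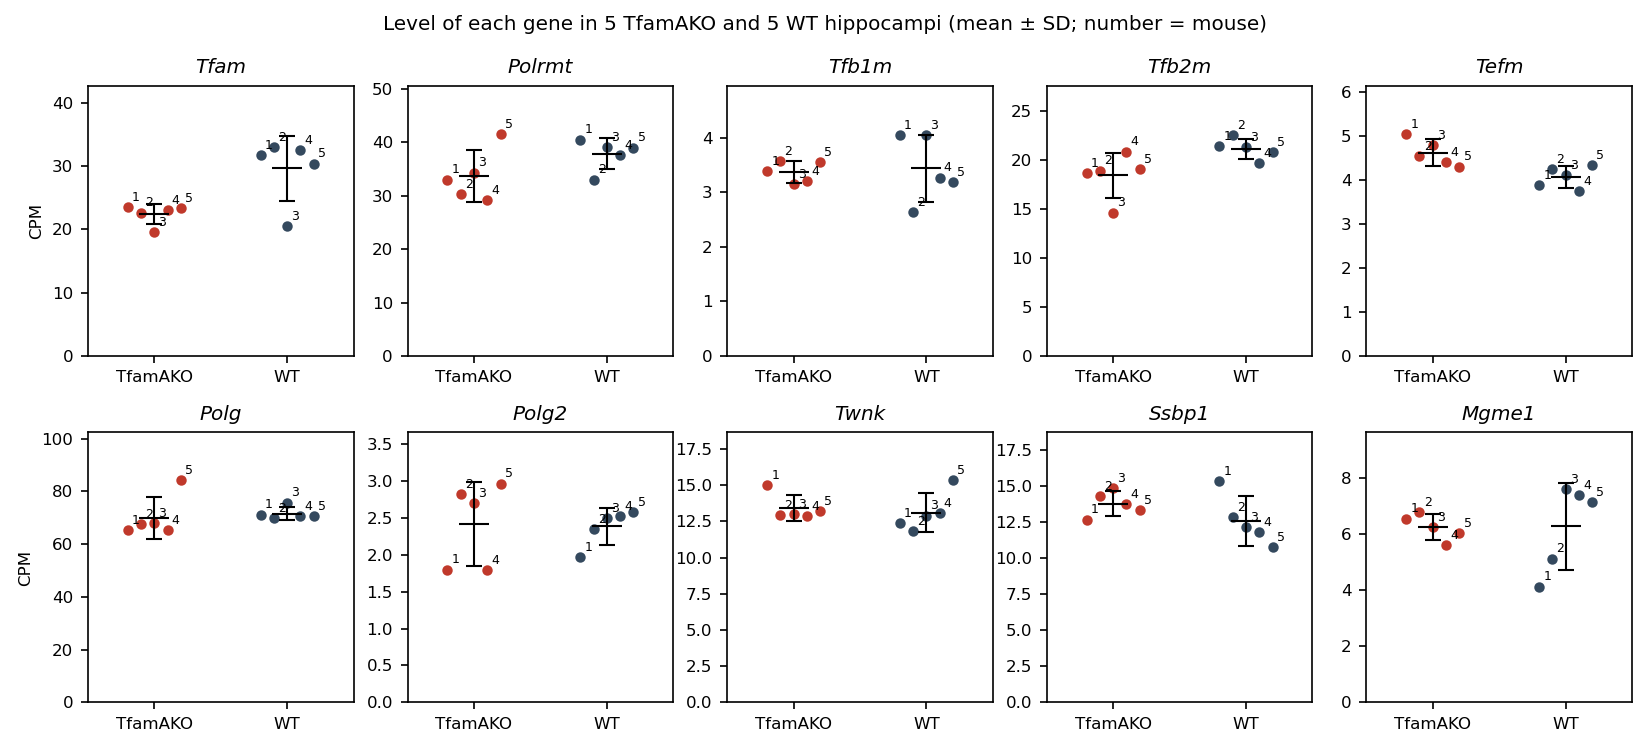
Level in CPM (vertical axes, each from 0) of the 10 genes in each TfamAKO mouse (left, red) and each WT mouse (right, dark), with the mean and SD as bars and the mouse number beside each point. For Tfam, 4 WT points lie between 30.4 and 33.0 CPM, above the TfamAKO points between 19.6 and 23.6 CPM, and WT 3 lies at 20.6 CPM.

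The promoter of Tfam is shown because it carries a short motif that most of the 10 genes share and that the choice of genes did not use. RefSeq promoters (build GRCm38.p6, from 250 bases before to 50 bases after a transcript start) were found for each of the 10 genes, with 2 for Twnk. They were searched on both strands for the ETS core CCGGAAG, which is bound by the ETS-family factor GABP (also called NRF-2), and for the NRF-1 core (GCGC, any base, then TGCGC), both known from work on human and rodent promoters of nuclear genes for mitochondrial proteins. The ETS core was found for 7 of the 10 genes, in 7 of their 11 promoters, and in 8.86% of all 32851 promoters of the same length. The NRF-1 core was found for 1 of the 10 genes, Polrmt, and in 4.60% of all promoters. Capitals mark the motif matches in the promoters of Tfam and Polrmt, the genes whose calls differed between the deposited tables, printed 5′ to 3′ on the gene's strand.
Tfam, chr10:71237995-71238294, minus strand: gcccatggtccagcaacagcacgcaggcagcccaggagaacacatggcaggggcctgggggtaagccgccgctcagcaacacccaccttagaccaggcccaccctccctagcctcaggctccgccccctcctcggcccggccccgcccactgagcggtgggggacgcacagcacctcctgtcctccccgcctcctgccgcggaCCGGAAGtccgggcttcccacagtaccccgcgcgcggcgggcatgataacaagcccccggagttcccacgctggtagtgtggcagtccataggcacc
Polrmt, chr10:79746532-79746831, minus strand: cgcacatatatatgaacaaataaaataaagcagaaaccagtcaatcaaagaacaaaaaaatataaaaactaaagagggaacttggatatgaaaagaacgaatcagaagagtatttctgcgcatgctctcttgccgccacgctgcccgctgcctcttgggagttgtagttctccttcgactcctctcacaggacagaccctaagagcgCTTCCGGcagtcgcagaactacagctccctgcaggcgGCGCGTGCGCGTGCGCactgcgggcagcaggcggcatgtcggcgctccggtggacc

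The ETS match began 47 bases before the start in Tfam and 43 bases before it in Polrmt, where it stood in the reverse orientation (CTTCCGG). The capitals nearest the start of Polrmt are 2 overlapping matches to the NRF-1 core. The matches of the other genes are given with 12 bases on either side, the ETS core in capitals and in the orientation in which it stood on the gene's strand.
Ssbp1: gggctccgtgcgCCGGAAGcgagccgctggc
Polg: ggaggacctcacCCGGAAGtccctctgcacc
Polg2: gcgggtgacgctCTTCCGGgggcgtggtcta
Tefm: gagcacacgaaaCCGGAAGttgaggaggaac
Twnk, the match farther from the start: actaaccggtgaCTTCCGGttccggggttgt
Twnk, the match nearer to the start: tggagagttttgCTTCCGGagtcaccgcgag

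These 8 matches lay between 9 and 110 bases before a start, 4 as spelled and 4 in reverse. Neither motif was found in these windows for Tfb1m, Tfb2m and Mgme1. The match is a description of the letters. Of the 7 genes that hold the ETS core, Tfam was called in the counts and the rest were not, against 37.4% of all genes tested. In the authors' normalized values Polrmt passed (limma adjusted p = 0.0424) and Tfam did not (limma adjusted p = 0.117). A link between motif and change was not tested.

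Of the transcription factors, Polrmt and Tfb2m had lower means in TfamAKO without passing the test. Polrmt, the RNA polymerase, stood at 33.0, 30.3, 34.3, 29.2 and 41.5 CPM in TfamAKO 1 to 5, and at 40.5, 33.0, 39.0, 37.6 and 39.0 CPM in WT 1 to 5. TfamAKO 5 was the highest of the 10 libraries and WT 2 the lowest of its group, so that the groups overlapped. The log2 fold change was -0.17 with a 95% interval of -0.38 to 0.04 (edgeR adjusted p = 0.195), and without TfamAKO 5 it was -0.25 (edgeR adjusted p = 0.0232). It was -0.10 with WT 3, 4 and 5 left out, and -0.21 with TfamAKO 4 and 5 left out, neither past the threshold.

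Tfb2m, which opens the promoter for the polymerase, stood at 18.6, 18.9, 14.6, 20.8 and 19.1 CPM in TfamAKO 1 to 5, and at 21.4, 22.6, 21.3, 19.7 and 20.8 CPM in WT 1 to 5. The groups met through TfamAKO 4, and 4 of the 5 TfamAKO libraries lay below the lowest WT library. The log2 fold change was -0.20 with a 95% interval that ran from -0.40 to 0.01 (edgeR adjusted p = 0.116). Its direction held in each of the 27 alternative analyses, from -0.35 to -0.13, and its adjusted p stayed above the threshold in each.

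Tefm, the elongation factor that keeps the polymerase on the template, had a higher mean in TfamAKO without passing the test. It stood at 5.04, 4.54, 4.80, 4.40 and 4.30 CPM in TfamAKO 1 to 5 and at 3.87, 4.24, 4.11, 3.74 and 4.34 CPM in WT 1 to 5. TfamAKO 1 to 4 lay above the highest WT library and TfamAKO 5 did not, and the log2 fold change was 0.18 with a 95% interval of -0.07 to 0.44 (edgeR adjusted p = 0.242). Tfb1m, related to Tfb2m and known to methylate the small mitochondrial ribosomal RNA, averaged 3.38 ± 0.199 CPM in TfamAKO and 3.44 ± 0.610 CPM in WT (SD, n = 5 each). Its libraries ran from 3.15 to 3.58 CPM in TfamAKO, within the 2.64 to 4.06 CPM of WT, and the 95% interval of its log2 fold change was -0.36 to 0.31 (edgeR adjusted p = 0.924).

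Of the replication proteins, Polg, the catalytic subunit of the mtDNA polymerase, stood at 65.3, 67.6, 68.0, 65.4 and 84.2 CPM in TfamAKO 1 to 5, and at 71.2, 70.0, 75.7, 70.5 and 70.7 CPM in WT 1 to 5. TfamAKO 1 to 4 lay below the lowest WT library, while TfamAKO 5 lay above the highest, and the log2 fold change was -0.03 with a 95% interval of -0.19 to 0.13 (edgeR adjusted p = 0.767). TfamAKO 5 was also the library with the highest Polrmt of the 10. Without it the log2 fold change of Polg was -0.10 (edgeR adjusted p = 0.0994).

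Polg2, the accessory subunit, was the least counted of the 10 and the most variable in TfamAKO. It ran from 1.80 to 2.96 CPM in TfamAKO and from 1.97 to 2.57 CPM in WT, and the 95% interval of its log2 fold change, -0.40 to 0.44, was the widest of the 10 (edgeR adjusted p = 0.956). Changes of either sign within that interval fit the values of Polg2, so its result does not show that the gene was unchanged. Twnk, which encodes the helicase Twinkle, averaged 13.4 ± 0.897 CPM in TfamAKO and 13.1 ± 1.35 CPM in WT (SD, n = 5 each), with TfamAKO 1 at 15.0 CPM above the other 4 TfamAKO libraries. Its log2 fold change of 0.03 had a 95% interval of -0.17 to 0.23 (edgeR adjusted p = 0.822). With WT 3, 4 and 5 left out, the log2 fold change was 0.17 for Twnk (edgeR adjusted p = 0.370) and 0.18 for Polg2 (edgeR adjusted p = 0.716).

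Ssbp1 averaged 13.8 ± 0.845 CPM in TfamAKO and 12.6 ± 1.72 CPM in WT (SD, n = 5 each), with a log2 fold change of 0.13 and a 95% interval of -0.09 to 0.36 (edgeR adjusted p = 0.332). TfamAKO libraries ran from 12.7 to 14.9 CPM. WT 1, at 15.4 CPM, lay above each of them, and the remaining WT libraries lay at 10.8 to 12.9 CPM. Without WT 3, 4 and 5 the log2 fold change of Ssbp1 was -0.01.

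Mgme1, an exonuclease that trims single-stranded flaps left by replication, differed among the WT mice more than between the genotypes. It stood at 6.54, 6.78, 6.24, 5.60 and 6.02 CPM in TfamAKO 1 to 5, and at 4.12, 5.12, 7.59, 7.37 and 7.14 CPM in WT 1 to 5. WT 1 and 2 lay below the TfamAKO range, and WT 3, 4 and 5, the libraries with choroid plexus transcripts, lay above it. The log2 fold change was -0.01 over the 10 libraries (edgeR adjusted p = 0.960), 0.45 without WT 3, 4 and 5 (edgeR adjusted p = 0.123) and 0.41 with the choroid plexus score as a covariate (edgeR adjusted p = 0.0574), so that its direction turned.

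**Figure D2:**
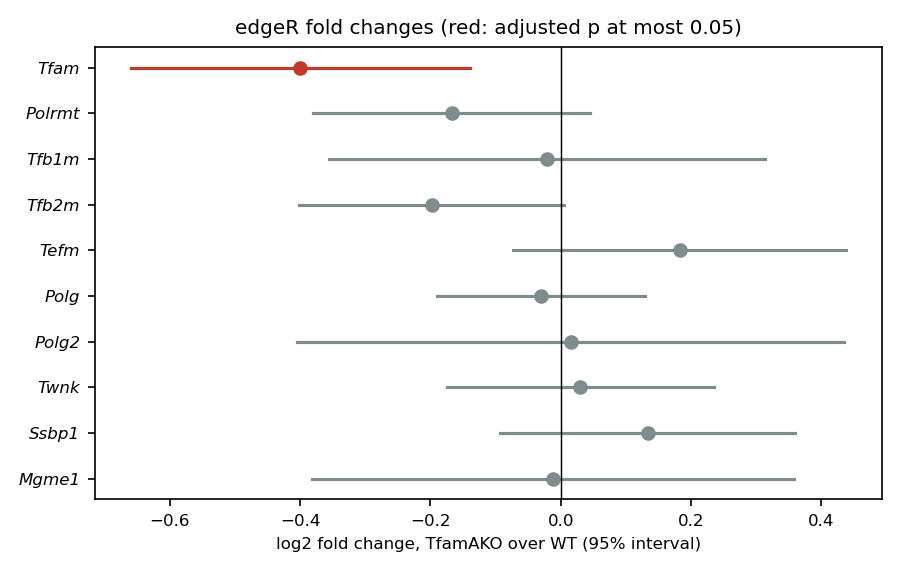
Log2 fold change, TfamAKO over WT (horizontal axis), of the 10 genes with the 95% interval as a line, red where the adjusted p is at most 0.05. The interval of Tfam, -0.66 to -0.14, lies below 0, and the other 9 intervals include 0 and stay between -0.40 and 0.44.

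The deposited table of normalized values gave another gene of the 10 the call. The authors' normalized value of Tfam was 521, 416, 542, 532 and 629 in TfamAKO 1 to 5, and 501, 674, 617, 776 and 635 in WT 1 to 5. On this scale WT 1 was the lowest WT library and WT 3 was not, whereas in CPM WT 3 stood apart. The log2 fold change of Tfam was -0.28 (limma on log2 of the normalized value plus 1, adjusted p = 0.117). For Polrmt the normalized values were 769, 636, 701, 613 and 860 in TfamAKO 1 to 5, and 1023, 719, 967, 965 and 857 in WT 1 to 5. Its groups still overlapped, through TfamAKO 1 and 5 against WT 2 and 5, and its log2 fold change on that scale was -0.34 (limma adjusted p = 0.0424). Polg averaged 1739 ± 240.3 in TfamAKO and 1482 ± 244 in WT on the normalized scale (SD, n = 5 each), with a log2 fold change of 0.24 (limma adjusted p = 0.153), opposite in sign to that in the counts.

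The tables differed through a factor that is particular to a gene in a library. The count divided by the normalized value, relative to the median of that ratio in the library, was 1.01, 1.22, 0.811, 0.969 and 0.837 for Tfam in TfamAKO 1 to 5, and 1.40, 1.10, 0.757, 0.952 and 1.08 in WT 1 to 5. A factor of 1 means that a gene was scaled as the typical gene of its library, so Tfam in WT 1 was scaled down and Tfam in WT 3 was scaled up by the authors. The SD of this factor over the 10 libraries was 0.28 on the log2 scale for Tfam, above that of 97.3% of the 12283 genes with at least 50 counts in every library, whose median was 0.05. For Polg it was 0.24, above 95.7% of those genes, and its factor averaged 0.908 ± 0.0792 in TfamAKO and 1.11 ± 0.181 in WT (SD, n = 5 each). For Polrmt the factor averaged 1.05 ± 0.0537 in TfamAKO and 0.949 ± 0.0769 in WT (SD, n = 5 each). Twnk, by contrast, had a factor SD above only 2.20% of those genes. The labels do not say how the authors derived the factor, and its source was not tested.

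**Figure D3:**
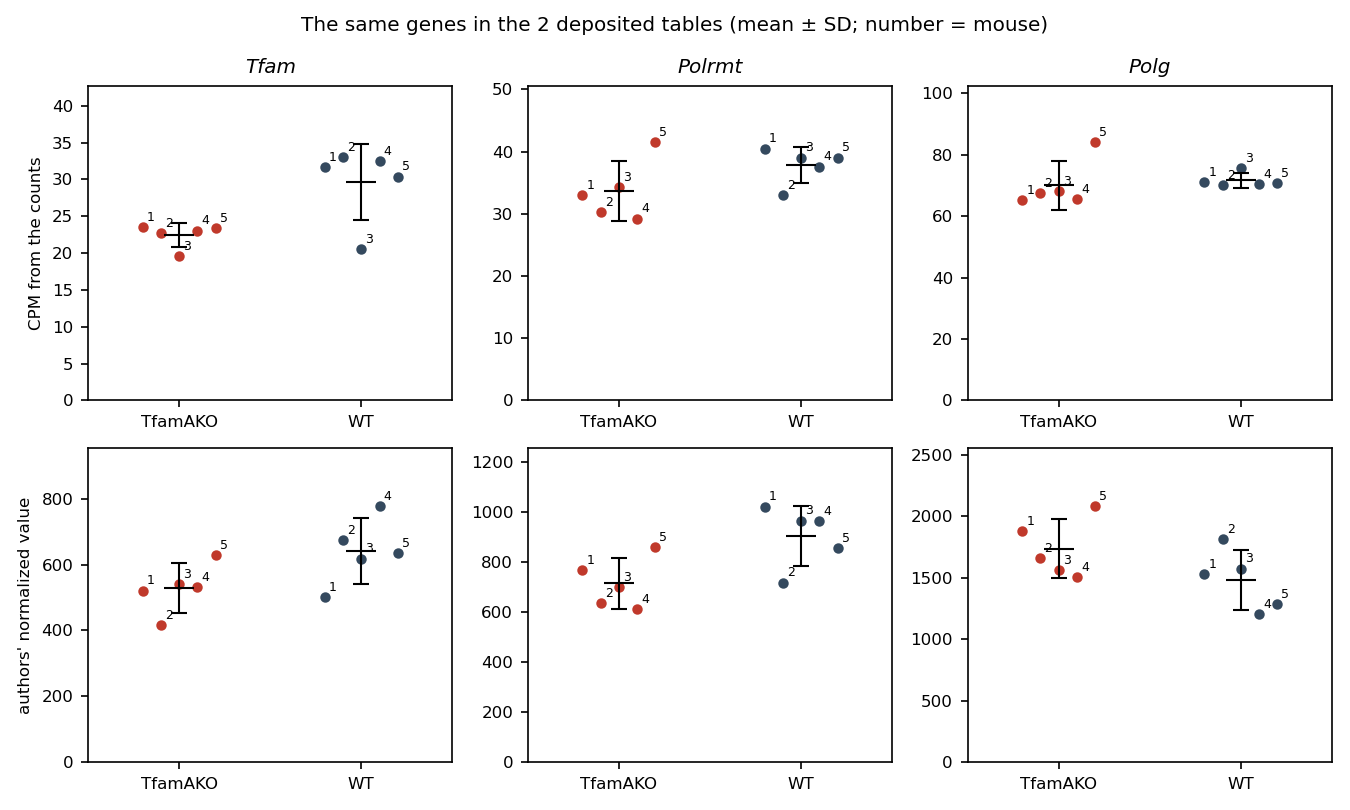
Tfam, Polrmt and Polg in CPM computed from the deposited counts (top) and in the authors' normalized values (bottom), for each TfamAKO mouse (left in each panel) and each WT mouse (right), with mean and SD as bars. For Tfam, WT 3 is the lowest WT mouse in CPM (20.6) and WT 1 is the lowest in normalized values (501).

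Levels were compared between the 10 genes per kilobase of the longest APPRIS principal transcript in GENCODE M21, since longer transcripts collect more reads. The order from high to low in TfamAKO was Polrmt at 8.96, Polg at 8.94, Tfb2m at 7.52, Tfam at 5.39, Twnk at 3.84, Tefm at 3.53, Ssbp1 at 3.14, Tfb1m at 2.41, Mgme1 at 2.20 and Polg2 at 1.60 CPM per kilobase. The order was the same in WT, where Polrmt stood at 10.1, Tfam at 7.12 and Polg2 at 1.58 CPM per kilobase. In both genotypes the libraries of Polrmt and Polg overlapped, as did those of Polg and Tfb2m, of Tefm and Ssbp1, and of Tfb1m and Mgme1, while Tfam stood apart from both of its neighbours. Twnk and Tefm overlapped in TfamAKO and not in WT, and the reverse held for Ssbp1 with Tfb1m and for Mgme1 with Polg2. The place of Ssbp1 depends on the transcript taken: with its shortest principal transcript (933 bases in place of 4398) it stood at 14.8 CPM per kilobase in TfamAKO and 13.5 in WT, above the rest. Tfam has 4 protein-coding models in the annotation, from 472 to 4167 bases, so its place rests on the long one. Gene models on the opposite strand overlap 6 of the 10 genes (Tfb1m, Tfb2m, Polg, Polg2, Twnk and Mgme1), and the labels do not say whether the counting used strand.

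The genes whose profile over the 10 libraries lay nearest to that of Tfam were outside the mtDNA machinery. Likeness was the root mean square difference of log2 CPM after each gene was centred on its own mean, over 14789 genes with a mean of at least 1 CPM. The nearest were Aspa, which encodes aspartoacylase, at 0.124, the zinc finger gene Zfp575 at 0.128, and U2af1l4, a relative of the splicing factor U2AF1, at 0.131, and a row with an Ensembl-type name in place of a symbol came next at 0.136. U2af1l4, for example, stood at 18.4 to 20.6 CPM in TfamAKO and 19.9 to 25.4 CPM in WT, with WT 3 the lowest of its group as for Tfam. Of the other 9 factors, Tfb2m came closest, at 0.217 and rank 891, and Mgme1 was farthest, at 0.431 and rank 10183. These ranks hold for CPM from the counts. They were not computed in the normalized values, where WT 1 and not WT 3 was the lowest WT library for Tfam.

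Around the 10 factors, 79 further genes of mtDNA maintenance and expression were followed in 5 lists, and 18 of them rose and 12 fell, 38.0% in all against 37.4% of all genes tested. Of 7 genes whose proteins organise the nucleoid or turn over its contents, 6 rose and 1 fell, with a median log2 fold change of 0.27. Lonp1, the matrix protease that is known to degrade TFAM not bound to DNA, averaged 184 ± 22.8 CPM in TfamAKO and 89.6 ± 6.36 CPM in WT (SD, n = 5 each), with 145 CPM in its lowest TfamAKO library against 101 CPM in its highest WT library. Its log2 fold change was 1.03 ± 0.09 (SE, edgeR adjusted p = 6.73e-06), and it was called in each of the 27 alternatives. Clpx, which unfolds substrates of the matrix protease ClpP, rose (0.48 ± 0.08), as did the mitochondrial co-chaperone Dnaja3 (0.47 ± 0.06), and the prohibitin gene Phb fell (-0.37 ± 0.06). Without WT 3, 4 and 5, 3 of the 7 rose and Phb was not called, and the normalized values also gave 3. Calls over all genes also fell, from 6048 of 16180 to 2752 of 16723 without WT 3, 4 and 5. The normalized values gave 5286 of 16180.

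Enzymes of primer removal, base repair and DNA topology gave 4 of 16 genes higher and 3 lower, with a median log2 fold change of 0.17. The called genes were 43.8% of the list, against 37.4% of all genes tested. Nthl1, a glycosylase that removes oxidised pyrimidines, averaged 5.57 ± 0.659 CPM in TfamAKO and 2.97 ± 0.462 CPM in WT (SD, n = 5 each), a log2 fold change of 0.90 ± 0.15 (SE, edgeR adjusted p = 0.000731). Ogg1, which removes oxidised guanine, rose by 0.49 ± 0.12 on the same scale, and the nuclease-helicase gene Dna2 (0.87 ± 0.27) and the primase-polymerase gene Primpol (0.40 ± 0.13) rose too. Dna2 and Primpol each lost the call in 10 of the 27 alternatives. The 7 calls of this list became 2 without WT 5, 3 without WT 4 or without any 1 of TfamAKO 2, 3 and 4, and 4 without WT 2 or WT 3. They became 2 without WT 3, 4 and 5 together, and 3 with the choroid plexus covariate or without TfamAKO 4 and 5. Over all genes these settings gave 2752 of 16723, 4235 of 16180 and 4931 of 16327 calls, in that order. With 1 library left out, all genes gave 4828 to 7094 calls.

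Genes of deoxynucleotide supply gave 3 of 15 higher and 2 lower, with a median of 0.06. The called genes were 33.3% of the list, against 37.4% of all genes tested. The mitochondrial nucleotide kinase gene Cmpk2 fell (-0.48 ± 0.10), with a mean of 18.6 ± 2.60 CPM in TfamAKO and 25.9 ± 2.22 CPM in WT (SD, n = 5 each). Dut, the dUTPase gene, fell (-0.24 ± 0.07), and Rrm2 (0.80 ± 0.26), a ribonucleotide reductase subunit, and Tk2 (0.21 ± 0.07), the mitochondrial thymidine kinase, rose. Tk2 lost the call in 15 of the 27 alternatives and Rrm2 in 9. The 5 calls of this list became 2, both lower, without WT 5 or without TfamAKO 2, and 3 without WT 4, TfamAKO 3 or TfamAKO 4. None was left in edgeR without WT 3, 4 and 5 (4 of 15 had an unadjusted p under 0.05), and 3 were left without TfamAKO 4 and 5, with the choroid plexus covariate, with upper-quartile factors or in the normalized values. Calls over all genes were 2752 of 16723 without WT 3, 4 and 5, and 5154 of 16184 without WT 5. With upper-quartile factors they were 6221 of 16180.

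Among 29 genes of mitochondrial RNA processing and stability, 3 rose, 4 fell and 22 did not pass, with a median of -0.02. The called genes were 24.1% of the 29, against 37.4% of all genes tested. The 4 with the smallest p were those that fell: Mterf2 (-0.48 ± 0.12), of the mitochondrial termination factor family, Fastkd2 (-0.37 ± 0.10) and Fastkd3 (-0.37 ± 0.11), of the FASTK family of mitochondrial RNA-binding proteins, and Mrm3 (-0.36 ± 0.10), a methyltransferase of the large mitochondrial ribosomal RNA. In edgeR, 0 genes of this list were called without WT 3, 4 and 5 (2 of 29 had an unadjusted p under 0.05), and 1 was called with the choroid plexus covariate. Over all genes, 2752 of 16723 were called without WT 3, 4 and 5, and 4235 of 16180 with the covariate. There were 4 calls, each lower, without TfamAKO 2 or without TfamAKO 4 and 5, and 3 calls in the normalized values. Among 12 transcriptional regulators known to act on the nuclear genes, 2 rose and 2 fell, with a median of -0.07. The called regulators were 33.3% of the 12, also below the 37.4% of all genes. Sp1 (0.56 ± 0.11) and Myc (0.51 ± 0.14) rose, and Gabpb2 (-0.45 ± 0.10), which encodes a partner subunit of the ETS factor GABP, and the nuclear receptor gene Esrra (-0.17 ± 0.06) fell. Esrra lost the call in 12 of the 27 alternatives. The 4 calls of this list became 1 without WT 3, 4 and 5 and 2 with the choroid plexus covariate. The 5 lists together gave 30 calls, 6 without WT 3, 4 and 5, 20 without TfamAKO 4 and 5, 17 without WT 5, 17 without TfamAKO 2, 19 without TfamAKO 3 and 18 in the normalized values. All genes gave, in the same order, 6048, 2752, 4931, 5154, 4828, 4922 and 5286 calls.

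**Figure D4:**
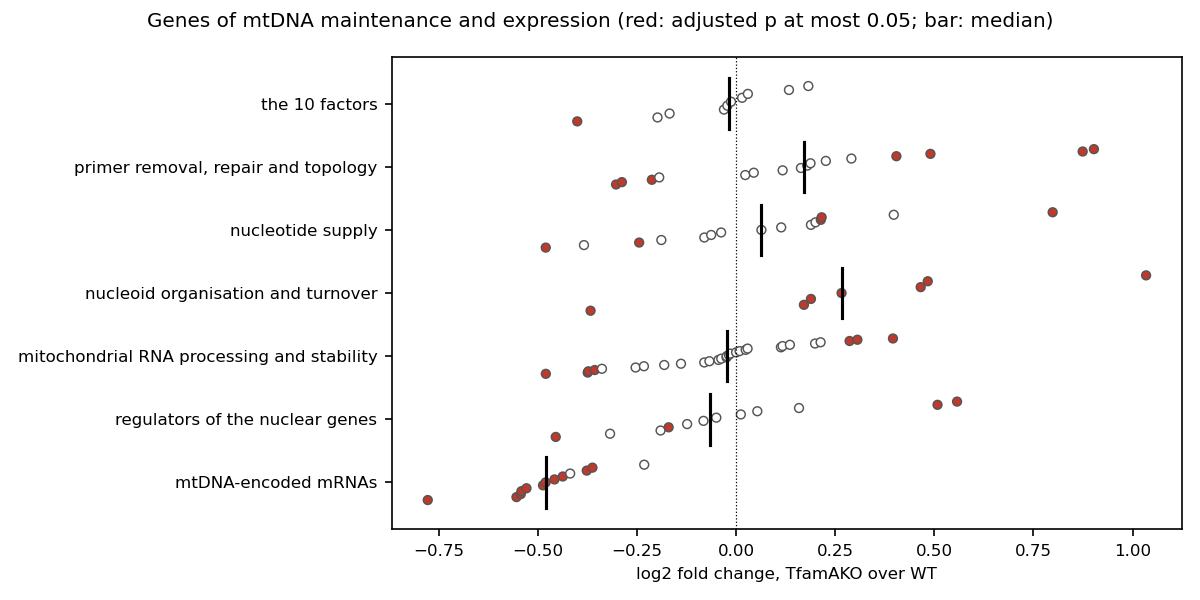
Log2 fold change, TfamAKO over WT (horizontal axis), of the 10 factors, of 5 lists of related genes and of the 13 mtDNA-encoded mRNAs; each point is a gene, red where the adjusted p is at most 0.05, and the bar is the list's median. The 10 factors centre on -0.02, the nucleoid list on 0.27 and the mtDNA-encoded mRNAs on -0.48.

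The 13 mRNAs that are transcribed from mtDNA with the help of these factors made up a smaller share of the counts in TfamAKO. They took 4.18%, 4.70%, 4.06%, 4.71% and 4.38% of counts in TfamAKO 1 to 5, and 5.83%, 6.77%, 6.22%, 5.48% and 4.95% in WT 1 to 5, and the groups did not overlap. The difference of means was -1.44 percentage points (two-sided exact permutation test over mice, p = 0.00794, the smallest that 5 against 5 can give). It was -1.53 points when TfamAKO 4 and 5 were left out and -1.89 points when WT 3, 4 and 5 were left out. Of the 13, 11 fell in the fit across all genes, where 16.6% of all genes tested were called lower, and between 10 and 12 fell in the alternatives. Smallest in p was mt-Nd2, which encodes a complex I subunit, with a log2 fold change of -0.78 ± 0.10 (SE). The next by p were mt-Nd4, for another complex I subunit, at -0.54, mt-Co3, for a complex IV subunit, at -0.55, and mt-Atp6, for a subunit of the ATP synthase, at -0.53. WT 3 had a Tfam level inside the TfamAKO range and, at 6.22%, a share above every TfamAKO library, while WT 5, with Tfam at 30.4 CPM, had the lowest WT share. With 5 mice in each genotype, no correlation between these measures is given, and none was tested. Summed neuron, microglia and endothelial markers also differed between the genotypes, and the part of cell makeup in the mtDNA-encoded share was not tested.

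**Figure D5:**
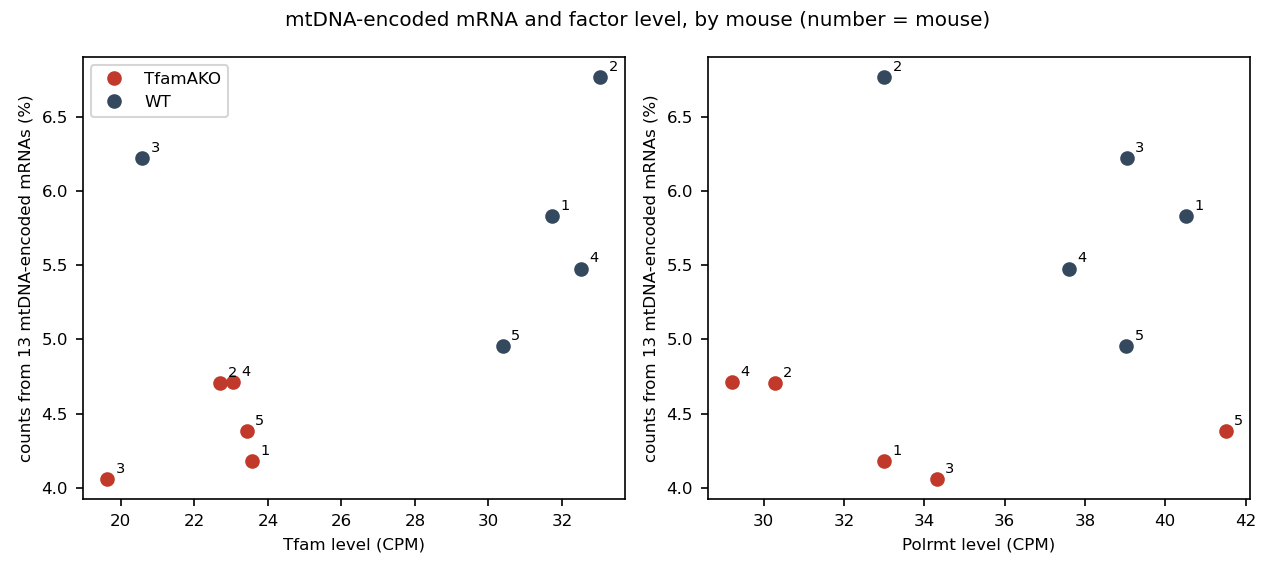
Percent of counts from the 13 mtDNA-encoded mRNAs (vertical axis, not from 0) against the level of Tfam (left) and of Polrmt (right) in CPM, for each TfamAKO (red) and WT (dark) mouse, numbered. WT 3 sits at 20.6 CPM of Tfam with 6.22% of counts, and the TfamAKO mice lie at or below 4.71%.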

How the data were processed

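Libraries were compared between 5 TfamAKO and 5 WT hippocampi. The authors deposited estimated counts, all whole numbers, and a second table of normalized values, treated here as a signal of unstated derivation. The submitters' processing notes name Salmon and DESeq2 1.26.0 (build not given in the sources used here). From the counts, genes were kept by filterByExpr (minimum count 10), which left 16180 of 20156. Library sizes were scaled by TMM, and genotypes were tested with the quasi-likelihood test (two-sided) of edgeR 4.0.16 (R 4.3.3) with Benjamini-Hochberg adjustment over all tested genes and a threshold of 0.05. Intervals are at 95% from the SE and the degrees of freedom of the fit. The normalized values were tested with limma 3.58.1 on log2 of the value plus 1. Log2 CPM used a prior count of 2. The share of mtDNA-encoded mRNAs was compared over mice by an exact permutation test. The edgeR fit was also run on simulated counts. There, few genes were changed and no library stood apart, so that run cannot show how the fit behaves on these data. Symbols matched 10 of 10 RefSeq promoter entries. CPM and intervals rest on reads that are not independent molecules.

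The 10 genes, the lists and the tests were chosen with earlier results of these data known. The genes named are the 10 factors, the 4 with the smallest p in each pathway list and among the mtDNA-encoded mRNAs, and the 4 nearest in profile to Tfam. Prox1, Ttr, Kdm5d, Xist and the astrocyte markers were named outside this rule. The labels reuse the numbers 1 to 5 in both genotypes. Alternatives were other scalings and filters, DESeq2 1.42.0, limma-voom, a robust fit, the normalized values with pseudocounts of 0.5, 1 and 5, a replicate block, a choroid plexus covariate and left-out libraries. The authors' factors as offsets and the joint removal of 5 libraries were added after seeing the data.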

Additional observations from a re-analysis of the deposited data

Results flagged for a closer look

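In groups of 5 libraries, the highest or lowest value was compared with the rest by Dixon's ratio, the gap to the nearest value over the range of the group, with a critical value of 0.71. Of 22 groups tested (10 genes and the mtDNA-encoded share, in each genotype), 5 exceeded it. For independent groups chance alone gives about 1 in 20. These groups share the same libraries, so the comparison cannot show an excess. For Tfam, TfamAKO 3 at 19.6 CPM lay below the other TfamAKO libraries, at 22.7 to 23.6 CPM, and WT 3 at 20.6 CPM lay below the other WT libraries, at 30.4 to 33.0 CPM. For Polg, TfamAKO 5 at 84.2 CPM lay above the other TfamAKO libraries, at 65.3 to 68.0 CPM, and WT 3 at 75.7 CPM lay above the other WT libraries, at 70.0 to 71.2 CPM. For Twnk, TfamAKO 1 at 15.0 CPM lay above the other TfamAKO libraries, at 12.8 to 13.2 CPM.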

How the results depend on the processing

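Tfam kept its direction in the 27 alternatives, from -0.57 to -0.28, and its call in 19. It lost the call in the normalized values (-0.28 at each of the 3 pseudocounts, limma adjusted p = 0.117), with the authors' factors as offsets (-0.28, edgeR adjusted p = 0.112), without TfamAKO 4 and 5 (-0.43), and in 3 of the fits that left out 1 library, which ran from -0.51 to -0.34. The number of the 10 genes called by edgeR was 0 without TfamAKO 4 and 5 (3 at an unadjusted p under 0.05), and 0 to 2 with 1 library left out. Polrmt passed in the normalized values, with the offsets and without TfamAKO 5. Genes past the threshold over the whole table numbered 6048, 4828 to 7094 with 1 library left out, 2752 without WT 3, 4 and 5 and 1851 without these and TfamAKO 4 and 5. Calls in the 5 lists (30) ran from 17 to 30 with 1 library left out, and were 18 at each pseudocount, 17 with the offsets, 13 with the choroid plexus covariate, 6 without WT 3, 4 and 5 and 2 without these and TfamAKO 4 and 5. The mtDNA-encoded share difference ran from -1.67 to -1.21 percentage points with 1 library left out. Without WT 3, 4 and 5 it was -1.89 (exact permutation p = 0.0952, the smallest that 5 against 2 can give).

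Factors near a log2 fold change of 0 changed sign without a call, and the cause was not tested. Tfb1m was at 0.012 in limma-voom, at 0.0049, 0.0050 and 0.0038 in the normalized values at pseudocounts 1, 0.5 and 5, at 0.049 without WT 3, 4 and 5 and at 0.017 without these and TfamAKO 4 and 5, and ran from -0.088 to 0.042 with 1 library left out. Polg was at 0.24 in the normalized values (3 pseudocounts), 0.23 with the offsets, 0.017 without WT 3, 4 and 5 and 0.0033 with the covariate. Polg2 was at -0.015 with upper-quartile factors and -0.025 with limma-voom, at -0.0041 with the replicate block, and at -0.073 to 0.11 with 1 library left out. Twnk ran from -0.013 to 0.083 with 1 library left out. Ssbp1 was at -0.0064 without WT 3, 4 and 5, -0.032 with the covariate and -0.022 without WT 3, 4 and 5 and TfamAKO 4 and 5. Mgme1 was at 0.017 with the replicate block, 0.055 without TfamAKO 4 and 5, 0.45 without WT 3, 4 and 5, 0.48 without these and TfamAKO 4 and 5, 0.41 with the covariate, and -0.13 to 0.062 with 1 library left out. Libraries with the same number correlated between the genotypes at -0.142 to 0.0691 (deviations from the group means across genes). The labels do not say whether such libraries shared a batch or litter, and these correlations cannot decide it. With the replicate number as a block, 5679 genes passed and Tfam was at -0.39 (edgeR adjusted p = 0.0104). Low counts limit Polg2 and Tfb1m most.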
